A study of Mus musculus with 2 samples.

Results

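Skeletal muscle genes were followed in 2 RNA-seq libraries of mouse ear skin. They are 41 genes of the 34745 in the deposited count table, a list of muscle genes by symbol: 14 isoforms typical of fast fibres, 8 typical of slow fibres, 2 developmental myosins, 3 satellite cell and myogenic genes, 6 sarcomere genes that fibre types share, 4 genes of energy supply and 4 of calcium release and uptake. Of these, 40 were measured, which here means at least 1 CPM (counts scaled to a fixed library total) in either library. The remaining one was Pax7. One library was labelled WT and one KAT8 cKO, a conditional knockout of the histone acetyltransferase gene Kat8. Both came from ears that had received 30 mg of 5% imiquimod cream a day for 3 days and were taken on day 4. Imiquimod is a TLR7 agonist that causes a psoriasis-like inflammation in mouse skin. The promoter or cell type that drives the knockout, and the strain, age and number of animals in a library, are not stated in the sources used here. With 1 library per label there was no test and no p-value, and the intervals below are 95% intervals of counting error only, so that the differences describe these 2 libraries.

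The libraries held 12179608 (WT) and 13727524 (KAT8 cKO) counts, so that 1 count was 0.0868 and 0.0689 CPM. Kat8 itself had 219 counts in WT and 351 in KAT8 cKO, so it was not reduced under the knockout label, though the value covers the whole gene and all cells of the ear, and Kat8 shares an exon position with Prss8. Xist had 11891 counts in WT and 6 in KAT8 cKO, while the Y-linked gene Eif2s3y had 0 and 838, so that sex and label cannot be told apart. For comparison with the counts that follow, 8.63% of all measured genes were at least 2-fold lower in the KAT8 cKO library and 4.56% were higher. Keratinocyte markers were abundant in both libraries, with Krt14 at 12587 and 12064 CPM. But of 8 such genes 3 were 2-fold lower in the KAT8 cKO library (Krt1, Krt10 and Flg) and 2 were higher (Krt15 and Col17a1). Among markers of other cells, 6 of 7 measured adipocyte genes and all 6 red cell genes were at least 2-fold lower in the KAT8 cKO library (summed levels 2652 to 191 CPM and 172 to 9.03 CPM), and 5 of 6 neutrophil genes were lower (13699 to 4987 CPM). All 7 sebaceous, 4 of 6 Schwann cell and 4 of 5 measured cartilage genes were higher (1679 to 8425 CPM, 136 to 328 CPM and 102 to 176 CPM). No marker that defines these lists was at 0 in both libraries, but the brown fat gene Ucp1 had 0 and 3 counts and the red cell gene Slc4a1 17 and 0. The part of these other tissues in the muscle values was not tested.

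Skeletal muscle fibres are built from sarcomeres, in which myosin pulls on actin filaments when troponin binds calcium released from the sarcoplasmic reticulum. Most sarcomere proteins come in isoforms that mark the fibre type: type IIB (Myh4) and IIX (Myh1) fibres contract fast and rely largely on glycolysis, type IIA (Myh2) fibres are fast and oxidative, and type I (Myh7) fibres are slow and oxidative. Embryonic and perinatal myosins (Myh3 and Myh8) mark developing or regenerating fibres, and satellite cells that express Pax7 are the stem cells of the muscle. The mouse ear carries small muscles at its base and within the auricle. In a bulk specimen, fewer muscle fibres and less RNA per fibre cannot be told apart.

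The promoters of 4 members are shown because their transcripts span the range of what follows. Myh4 and Mybpc2 are fast isoforms with very low ratios, Tnnt1 is a slow isoform that stayed within 2-fold, and Myh3 is the embryonic myosin. Each is the 250 bases before the RefSeq transcript start (GRCm38.p6), read 5′ to 3′ on the gene's strand, with capitals marking each E-box (CANNTG, a site type bound by the MyoD family) and each TATAAA, on either strand. The windows are chr11:67237562-67237811 on the plus strand for Myh4, chr7:44524670-44524919 on the minus strand for Mybpc2, chr7:4515976-4516225 on the minus strand for Tnnt1 and chr11:67078050-67078299 on the plus strand for Myh3.
Myh4: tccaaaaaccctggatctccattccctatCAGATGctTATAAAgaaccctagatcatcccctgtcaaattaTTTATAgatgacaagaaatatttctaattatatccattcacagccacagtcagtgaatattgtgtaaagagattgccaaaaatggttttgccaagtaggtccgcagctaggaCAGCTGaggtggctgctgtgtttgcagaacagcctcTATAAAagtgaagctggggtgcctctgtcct
Mybpc2: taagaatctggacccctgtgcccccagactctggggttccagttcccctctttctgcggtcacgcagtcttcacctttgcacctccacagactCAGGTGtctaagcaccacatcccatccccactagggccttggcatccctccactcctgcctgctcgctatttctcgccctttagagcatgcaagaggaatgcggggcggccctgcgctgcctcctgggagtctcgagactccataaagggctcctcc
Tnnt1: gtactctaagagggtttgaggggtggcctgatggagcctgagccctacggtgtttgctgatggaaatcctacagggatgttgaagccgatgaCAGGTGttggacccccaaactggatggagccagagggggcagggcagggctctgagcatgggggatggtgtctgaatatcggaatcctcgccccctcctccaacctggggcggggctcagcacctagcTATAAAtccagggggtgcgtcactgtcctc
Myh3: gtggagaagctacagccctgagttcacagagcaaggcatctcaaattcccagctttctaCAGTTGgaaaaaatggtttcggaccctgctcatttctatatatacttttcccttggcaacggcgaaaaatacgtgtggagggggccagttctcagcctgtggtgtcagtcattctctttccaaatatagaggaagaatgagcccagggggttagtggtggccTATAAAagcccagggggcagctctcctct

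The Myh4 window held 2 E-boxes, the nearer one 61 bases from the start, and 3 TATAAA matches. Those of Mybpc2, Tnnt1 and Myh3 held 1 E-box each, 151, 152 and 185 bases from the start, and TATAAA was found once in the Tnnt1 and Myh3 windows and not in the Mybpc2 window. Promoter windows were matched for 33 of the 41 members. An E-box was present in 29 of these 33 genes (87.9%), against 69.3% of the 27025 genes with such a window. A match to the MEF2 motif was present in 6 (18.2%, against 3.42%), namely Myh4, Myh1, Myh8, Casq2, Pvalb and Ttn. A match to the CArG box, the site of serum response factor, was present in 3 (9.09%, against 1.62%), namely Acta1, Myh4 and Myl3. TATAAA was present in 8 (24.2%, against 14.3%), and a MEF2 match can contain it. Both strands were searched and overlapping matches were kept. Myh4 was the one matched member with all 4 motifs, and its paralogue Myh2 had none of them. A match describes letters in the window and is not a binding site.

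Muscle transcripts were several-fold lower in the KAT8 cKO library than in the WT library. The 41 genes took 2.46% (interval 2.45 to 2.47, exact binomial) of all counts in the WT library and 0.631% (0.627 to 0.635) in the KAT8 cKO library. Of the 40 measured members, 32 were at least 2-fold lower, none was 2-fold higher and 8 lay within 2-fold. Of all 15240 measured genes, 8.63% were 2-fold lower and 4.56% were 2-fold higher. The rule of size was a log2 ratio of 1 or more, where the log2 ratio is log2 of (KAT8 cKO CPM + 1) over (WT CPM + 1). The median log2 ratio was -1.60 for the measured members and 0.01 for all measured genes. The members did not move as a block, since single ratios ran from -4.27 for Mybpc2 to 0.52 for Myh3. Just inside the 2-fold rule were Myh7 (-1.05) and Tnnc1 (-1.07), and just outside it were Myod1 (-0.88) and Tnnt1 (-0.78).

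**Figure D1:**
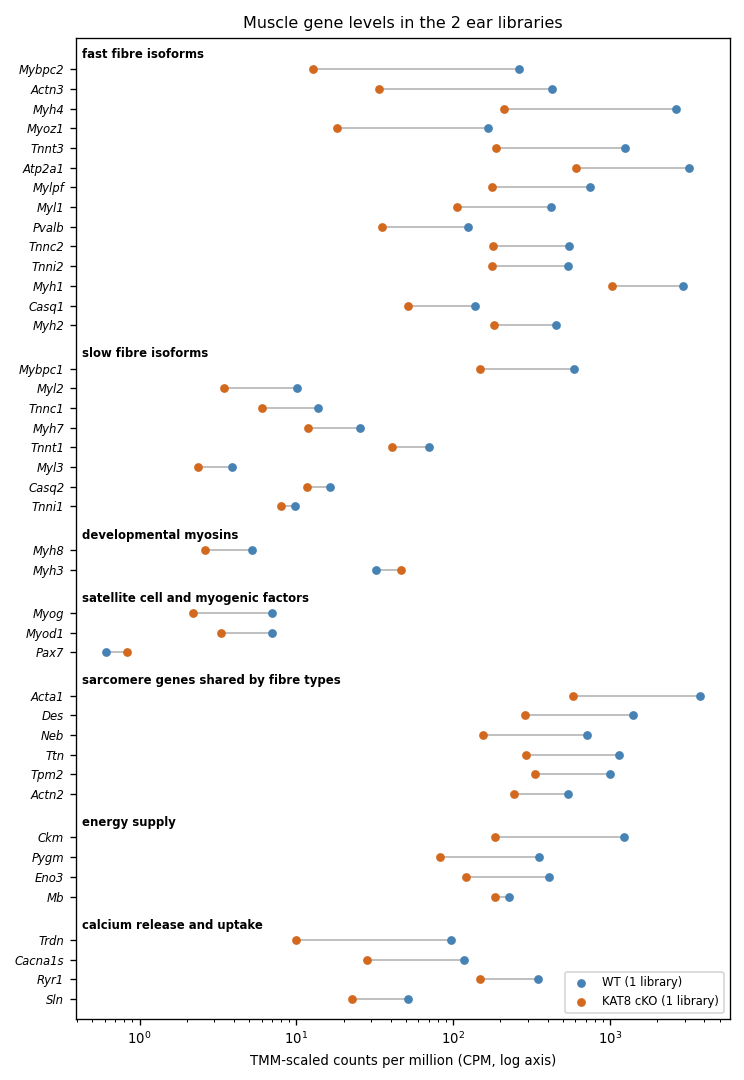
TMM-scaled CPM (log axis) of the 41 muscle genes in the WT (blue) and KAT8 cKO (orange) library, 1 library each, by role and joined by a grey line. All fast isoforms lie far to the left in the KAT8 cKO library, while Myh3 and the scarcely counted Pax7 are the only genes with the orange point on the right.

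The myosin heavy chains, the motor proteins that define a fibre's type, differed in make-up as well as in amount. Myh4 (ENSMUSG00000057003, chromosome 11 from 67238029 to 67260446, plus strand), the IIB myosin, had a level of 2632 CPM in WT ears and of 211 CPM in KAT8 cKO ears, 12.5-fold lower (interval 12.0 to 13.0). Myh1, the IIX myosin, had 2910 and 1035 CPM, 2.81-fold lower (2.76 to 2.87). Myh2, the IIA myosin, had 453 and 183 CPM, 2.48-fold lower (2.37 to 2.60). Of the 3 fast myosins, Myh4 thus had a ratio far below the other two, whose intervals lay close together. Myh7, the type I myosin, which the heart also uses, was at 25.4 and 11.8 CPM, 2.16-fold lower (1.78 to 2.62). Myh8, the perinatal myosin, was at 5.21 and 2.62 CPM, or 60 and 38 counts, a plain fold of 1.99 (1.3 to 3.07). Embryonic Myh3 went the other way, with 371 (WT) and 677 (KAT8 cKO) counts, or 32.2 and 46.6 CPM, a ratio of 1.45 (1.27 to 1.65) that lay within 2-fold.

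Set per kilobase of exon, so that genes of unequal length can be compared, the order of the 6 myosin levels was the same in both libraries. In the WT library Myh1 (458 CPM per kilobase) and Myh4 (437) stood nearly level, followed by Myh2 (63.5), Myh3 (5.32), Myh7 (2.95) and Myh8 (0.44). In the KAT8 cKO library Myh1 (163 CPM per kilobase) stood well apart from Myh4 (35.0), which lay closer to Myh2 (25.6) there. Myh3 followed at 7.70, Myh7 at 1.37 and Myh8 at 0.22. As a share of the summed myosin level per kilobase, which needs no scaling between libraries, Myh4 made up 45.2% in the WT library and 15.0% in the other. Myh1 made up 47.3% and 70.0%, and Myh2 6.56% and 11.0%. The embryonic Myh3 made up 0.55% and 3.31%, and slow Myh7 0.31% and 0.59%. On plain counts the Myh4 share was 43.4% (interval 43.1 to 43.8) of 69791 counts and 14.1% (13.7 to 14.6) of 21611. The sum over the 6 genes was 4.07-fold lower in the KAT8 cKO library. Myh2, Myh1, Myh4 and Myh8 are similar neighbours on chromosome 11, and 26.9%, 26.7%, 18.9% and 21.4% of the 50-base words of their longest coding transcripts also occur in another gene's transcript, so reads may have been split among them. For Myh3 this share was 4.81%, and for Myh7 it was 22.2%, all shared with cardiac Myh6, which had 0 and 1 counts.

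**Figure D2:**
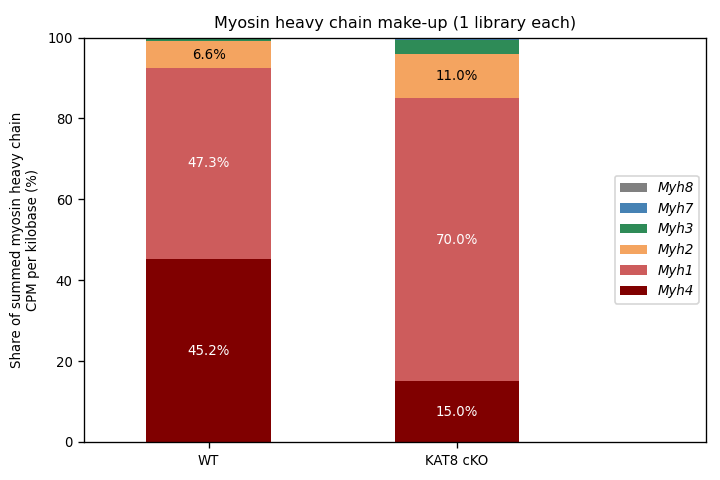
Share of each gene in the summed CPM per kilobase of 6 myosin heavy chains (vertical axis, percent) in the WT and the KAT8 cKO library, 1 library each. Myh4 fills 45.2% of the WT bar and 15.0% of the KAT8 cKO bar, while Myh1 grows from 47.3% to 70.0% and Myh3 from 0.55% to 3.31%.

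All 14 fast isoforms were at least 2-fold lower in the KAT8 cKO library (median log2 ratio -2.03, beside 8.63% of all genes lower and a median of 0.01). Next to Myh4, a small set stood lowest. Mybpc2 (chromosome 7 from 44501699 to 44524656, minus strand), the fast myosin binding protein C, went from 263 to 12.7 CPM, 20.8-fold lower (17.9 to 24.2). Actn3 (chromosome 19 from 4861216 to 4877909, minus strand), the alpha-actinin of fast glycolytic fibres, went from 423 to 33.6 CPM, 12.6-fold lower (11.5 to 13.8). Myoz1, a Z-disc protein that binds calcineurin, went from 166 to 18.1 CPM, 9.17-fold lower (8.06 to 10.5). Together with Myh4 these genes lay apart from the other fast isoforms, none of which was over 6.60-fold lower. Tnnt3, fast troponin T, had 1245 and 189 CPM (6.60-fold lower, 6.33 to 6.88). Atp2a1, the calcium pump SERCA1 that refills the reticulum of fast fibres, had 3204 and 603 CPM (5.31-fold lower, 5.19 to 5.44). The fast light chains followed, the regulatory chain Mylpf at 740 and 177 CPM (4.19-fold lower) and the essential chain Myl1 at 423 and 105 CPM (4.02-fold lower). A pseudogene, Mylf-ps, shares 23.4% of the 50-base words of Myl1. Pvalb, the calcium buffer parvalbumin, had 124 and 35.0 CPM (3.55-fold lower). Tnni2 and Tnnc2, the inhibitory and calcium-binding subunits of fast troponin, were 3.03-fold and 3.05-fold lower, from 540 to 178 CPM and from 548 to 179 CPM. Casq1, the calcium store calsequestrin of fast fibres, was 2.67-fold lower, from 138 to 51.7 CPM. Within one troponin complex, therefore, the T subunit had a ratio of 0.15 and the I and C subunits both had 0.33. The Tnnc2 ratio is uncertain, since the overlapping gene Ube2c had 16.1% and 55.7% of the Tnnc2 counts.

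The 8 slow isoforms were also lower, but by less: 4 were at least 2-fold lower and 4 lay within 2-fold, beside 8.63% of all genes lower. Their median log2 ratio was -0.91, beside 0.01 for all genes. Most slow isoforms were scarce in both libraries, and their counting intervals are correspondingly wide. Mybpc1, the slow myosin binding protein C, was the exception in level and in ratio, with 588 and 147 CPM (4.00-fold lower, interval 3.81 to 4.20). It is also found in fast fibres, so it marks slow fibres less strictly than the others. Myl2, the slow and cardiac regulatory light chain, had 116 and 50 counts (2.92-fold lower, 2.08 to 4.16). Tnnc1, slow and cardiac troponin C, had 158 and 87 counts (2.29-fold lower, 1.75 to 3.01). Myh7 at 2.16-fold completed the 4. The other 4 did not reach the rule of size. Tnnt1, slow troponin T, had 810 and 588 counts, or 70.3 and 40.5 CPM (1.74-fold lower, 1.56 to 1.93). Myl3, the slow and cardiac essential light chain, had 45 and 34 counts (1.67-fold lower, 1.04 to 2.68). Casq2, the slow and cardiac calsequestrin, had 189 and 169 counts (1.41-fold lower, 1.14 to 1.74). Tnni1, slow troponin I, had 113 and 115 counts, a plain fold of 1.24 after scaling, with an interval that includes no difference (0.95 to 1.62). The difference between the fast and the slow list was not tested, since each label had 1 library. An exon of Myl3 overlaps one of Pth1r, which had 157 and 305 counts, more than Myl3 itself, so the Myl3 value is uncertain. Several slow isoforms are also heart isoforms, and heart markers were not all at 0. Myh6 had 0 and 1 counts and Nppa 0 in both libraries, while Nppb had 211 and 151, Tnnt2 123 and 121 and Actc1 74 and 13. Over the 9 cardiac genes, 1 of 6 measured was 2-fold lower, with summed levels of 43.6 and 25.3 CPM, and their part in the slow isoform values was not tested.

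**Figure D3:**
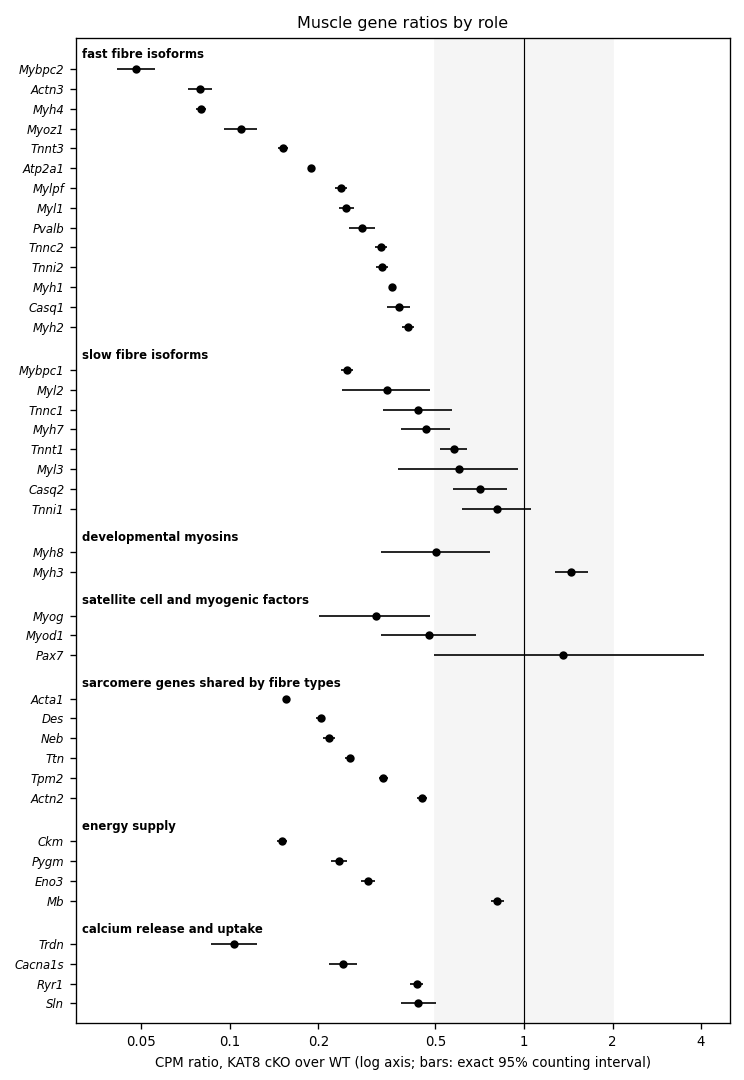
CPM ratio of the KAT8 cKO library over the WT library (log axis) for the 41 muscle genes by role, with exact 95% counting intervals from 1 library each and the range within 2-fold in grey. All 14 fast isoforms lie left of the grey band, whereas Tnnt1, Myl3, Casq2, Tnni1, Myh3, Myh8 (at its edge), Pax7 and Mb lie inside it.

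Fast and slow isoforms of the same protein were then set against each other inside each library. This fast-to-slow count ratio needs no scaling of libraries, and gene length drops out when the ratios of both libraries are compared. In all 9 pairs the fast isoform was lower relative to its slow or general partner in the KAT8 cKO library, by 1.33-fold to 5.79-fold (median 2.45), and all 9 intervals lay below a ratio of 1. For the motor itself, the WT library had 103 Myh4 counts per Myh7 count and the KAT8 cKO library 17.9, a 5.79-fold lower ratio (4.78 to 7.01). For alpha-actinin, Actn3 had 0.78 counts per Actn2 count in the WT library and 0.14 in the other, 5.67-fold lower (5.12 to 6.28). Actn2 is made in all fibre types, so this pair sets a fast isoform against a general one. The 2 myosin binding proteins gave a difference of like size, with 0.45 and 0.086 Mybpc2 counts per Mybpc1 count (5.19-fold lower, 4.44 to 6.07). Troponin T went from 17.7 to 4.66 counts of Tnnt3 per Tnnt1 count (3.80-fold lower, 3.39 to 4.26), and troponin I from 55.0 to 22.5 counts of Tnni2 per Tnni1 count (2.45-fold lower, 1.88 to 3.19). Smaller differences were found for the essential light chains (Myl1 to Myl3, 2.41-fold, 1.54 to 3.77) and the calsequestrins (Casq1 to Casq2, 1.89-fold, 1.51 to 2.37). The regulatory light chains (Mylpf to Myl2, 1.43-fold, 1.03 to 2.0) and troponin C (Tnnc2 to Tnnc1, 1.33-fold, 1.02 to 1.74) had intervals that ended close to no difference. Myl2 shares an exon position with Ccdc63, which had 9 and 14 counts, 7.76% and 28.0% of the Myl2 counts, so its pair is uncertain. Tnnc2 shares one with Ube2c on the opposite strand, a cell cycle gene with 1018 and 1450 counts, so reads of Ube2c could lie in the Tnnc2 value, more so in the KAT8 cKO library. In the 3 pairs where neither gene overlaps an exon of another gene (alpha-actinin, troponin T and troponin I), the fast isoform was 2.45-fold to 5.67-fold lower.

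**Figure D4:**
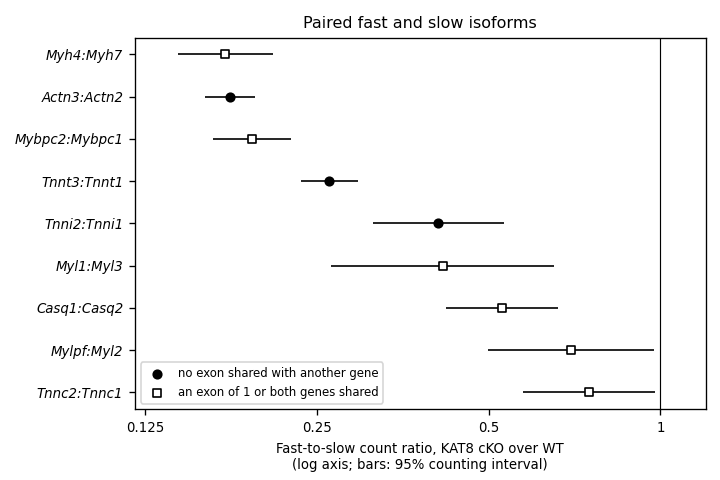
Fast-to-slow count ratio of 9 isoform pairs, KAT8 cKO library over WT library (log axis, 1 library each), with 95% counting intervals, filled circles for pairs without shared exons and open squares for the others. Every point lies left of 1, from 0.17 for Myh4 to Myh7 up to 0.75 for Tnnc2 to Tnnc1.

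The 6 sarcomere genes that fibre types share were all at least 2-fold lower (median log2 ratio -2.08, beside 8.63% of all measured genes lower and a median of 0.01). Acta1 (chromosome 8), skeletal alpha-actin of the thin filament, was the highest member per kilobase in both libraries, at 2434 and 377 CPM per kilobase. Its level went from 3739 to 579 CPM, 6.46-fold lower (6.31 to 6.62). Des, the intermediate filament desmin, had 1401 and 286 CPM (4.90-fold lower, 4.74 to 5.07). The giant proteins nebulin (Neb, the ruler of the thin filament) and titin (Ttn, the spring that joins Z-disc and M-line) were 4.60-fold (4.39 to 4.83) and 3.92-fold lower (3.78 to 4.05), from 718 to 156 CPM and from 1146 to 293 CPM. Tpm2, beta-tropomyosin, had 1004 and 334 CPM (3.01-fold lower), and Actn2 541 and 244 CPM (2.22-fold lower, 2.13 to 2.31). Desmin and Tpm2 are also made by smooth muscle. Of 8 smooth muscle markers, 2 were 2-fold lower (the summed level was 234 and 195 CPM) and 7 had ratios below 1. The lowest were Cnn1 (4.09-fold, from 26 and 8 counts), Synpo2 (2.45-fold) and Tagln (1.87-fold). Myh11 (1.39-fold) and Acta2 (1.14-fold) were lower by less, while Smtn was at 79.8 and 96.3 CPM. The part of smooth muscle in the Des and Tpm2 values was not tested.

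Energy supply genes were lower except for myoglobin. Ckm, the muscle creatine kinase that buffers ATP, went from 1232 to 185 CPM, 6.64-fold lower (6.37 to 6.93). Pygm, the phosphorylase that opens glycogen breakdown, went from 350 to 82.4 CPM (4.25-fold lower, 3.98 to 4.53). Eno3, the muscle enolase of glycolysis, went from 409 to 121 CPM (3.38-fold lower, 3.20 to 3.57). Mb, the oxygen store of oxidative fibres, had 2618 and 2681 counts, or 227 and 185 CPM, 1.23-fold lower (1.17 to 1.3), and so stayed within 2-fold. Per kilobase, the level of Mb stood below those of Ckm and Eno3 in the WT library (152 against 423 and 235 CPM per kilobase) and above both in the KAT8 cKO library (124 against 63.7 and 69.7). An exon of Mb overlaps one of Apol6, which had 301 and 110 counts, 11.5% and 4.10% of the Mb counts.

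The 4 genes of calcium release and uptake were all at least 2-fold lower, beside 8.63% of all measured genes, and by unequal amounts. Trdn, triadin, which anchors calsequestrin to the release channel, went from 96.3 to 9.99 CPM, 9.64-fold lower (8.10 to 11.5). Cacna1s, the voltage sensor of the T-tubule, went from 117 to 28.3 CPM (4.12-fold lower, 3.69 to 4.62). The release channel itself, Ryr1, had 345 and 149 CPM (2.32-fold lower, 2.20 to 2.44). Sln, sarcolipin, a small inhibitor of the calcium pump, had 596 and 328 counts (2.29-fold lower, 2.0 to 2.63). Among Ryr1, Cacna1s and Trdn, whose proteins lie at the junction between T-tubule and reticulum, the RNA differences thus ran from 2.32-fold for the channel to 9.64-fold for triadin.

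Genes of the satellite cell and of myogenic differentiation had few counts. Pax7 was below 1 CPM in both libraries, with 7 and 12 counts, a ratio of 1.36 with an interval from 0.49 to 4.08, so no difference was detectable at this depth. Myod1, the factor of committed myoblasts, had 80 and 48 counts (2.10-fold lower as a plain ratio, 1.45 to 3.07), and its log2 ratio with the pseudocount was -0.88. Myog, myogenin, which acts as myoblasts differentiate, had 81 and 32 counts (3.19-fold lower, 2.09 to 4.96). It was the 1 gene of the 3 past the rule of size, beside 8.63% of all measured genes that were 2-fold lower. Embryonic Myh3 had more counts than all 3 factors, 371 and 677, but its exons are longer. Per kilobase of exon it stood at 5.32 CPM in the WT library, not far above Myog (4.70) and Myod1 (3.73). In the KAT8 cKO library it stood at 7.70, against 1.47 for Myog and 1.78 for Myod1.

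To describe the members relative to other muscle transcripts, each was also set against the summed counts of Ttn and Neb. These were 21470 in the WT and 6509 in the KAT8 cKO library, 4.16-fold lower after scaling, a reference chosen after the values were seen. Because the reference was lower, a gene with equal CPM in both libraries has a ratio of 4.16 on that scale. A ratio above 1 thus means less reduced than titin and nebulin, and not higher in the KAT8 cKO library. On that scale 6 of 14 fast isoforms had intervals below a ratio of 1 and 6 above it, with a median of 1.01 and a range from 0.20 (Mybpc2) to 1.67 (Myh2). The 6 below were Mybpc2, Actn3, Myh4, Myoz1, Tnnt3 and Atp2a1. Among the 6 above were the IIX and IIA myosins Myh1 (1.48) and Myh2 (1.67). The fast list therefore held genes on both sides of titin and nebulin. Of the 8 slow isoforms, 7 had intervals above 1 and none below, with a median of 2.16 and Mybpc1 at 1.04. Both developmental myosins lay above 1, Myh8 at 2.09 and Myh3 at 6.02 (5.29 to 6.85), the highest of all members. Mb followed at 3.38 and Tnni1 at 3.36.

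A wider set of 88 muscle genes outside the 41, in 8 lists, was read in the same way. Of 81 measured, 48 were at least 2-fold lower and 1 was higher (median log2 ratio -1.17), beside 8.63% and 4.56% of all genes. Genes in these lists were chosen by their log2 ratio with the pseudocount, and the folds given are without it. Among fast-leaning genes 8 of 9 were lower, among them Mylk2, the kinase of fast light chains (141 to 23.4 CPM, 6.02-fold), the AMP deaminase gene Ampd1 (5.64-fold) and the tropomodulin gene Tmod4 (4.73-fold). Of 11 slow and oxidative genes 6 were lower, led by Lmod2 (5.13-fold), the cytochrome oxidase subunit gene Cox6a2 (3.05-fold) and Ankrd2 (2.92-fold). Atp2a2, the SERCA2 pump of slow fibres that most other cells also express, was named after its value was seen and had 471 and 565 CPM. Of 18 further sarcomere and Z-disc genes 13 were lower, with Xirp2 (6.62-fold), Pdlim3 (5.18-fold) and the titin cap gene Tcap (4.27-fold) first. Of 12 triad and excitation genes 10 were lower, among them Clcn1, the chloride channel of the muscle membrane (4.53-fold), Jsrp1 (4.28-fold) and the junctophilin gene Jph1 (3.32-fold).

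In each of the remaining 4 lists, 4 genes or fewer were at least 2-fold lower. Over all measured genes, 8.63% were 2-fold lower and 4.56% were higher. None of 7 measured genes of the neuromuscular junction was 2-fold lower and 1 was higher. Chrnd, the delta subunit of the acetylcholine receptor, had 28 and 89 counts (2.43 and 6.13 CPM), a ratio of 2.52 (1.63 to 4.01). In plain CPM, 6 of the 7 had ratios below 1 (median log2 ratio -0.55). Against titin and nebulin all 7 neuromuscular junction genes had intervals above 1, so they were less reduced than that reference. Their median there was 2.67, below the 4.16 of a gene with equal CPM in both libraries. Of 8 measured myogenic and regeneration genes 4 were lower, led by the satellite cell cadherin gene Cdh15 (116 and 27 counts, 5.41-fold) and including Myf6 (2.26-fold). Ncam1, which denervated and regenerating fibres express but Schwann cells do too, was named after its value was seen and had 60 and 131 counts. Mymk and Mymx, which fuse myoblasts, had 5 and 0 and 0 and 3 counts, and Myf5 had 8 and 12, too few to compare. Among 9 genes of the membrane and dystrophin complex 4 were lower, with the calpain gene Capn3 7.12-fold and the sarcoglycan gene Sgca 2.53-fold lower. Of 7 atrophy and denervation genes 3 were lower. Mstn, myostatin, the muscle's own growth inhibitor, had 298 and 27 counts, 13.9-fold lower (9.36 to 21.5), and Gadd45a and the ubiquitin ligase gene Trim63 were 2.87-fold and 2.51-fold lower. Relative to titin and nebulin, Mstn had a ratio of 0.30, while the other 6 genes of this list had intervals above 1 (median of the list 2.18). The highest of these were Runx1 (4.34), Foxo1 (4.22) and Hdac4 (3.65), named after their values were seen. Their plain CPM ratios were 1.04, 1.02 and 0.88, so they lay near the 4.16 of a gene with equal CPM in both libraries. The part of other cells of the ear in the values of the wider lists was not tested.

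**Figure D5:**
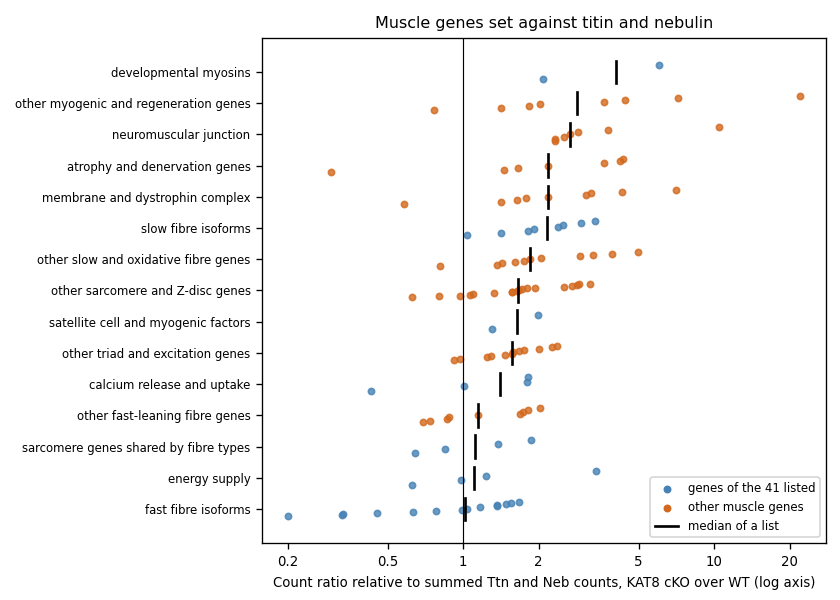
Count ratio of each measured muscle gene relative to the summed Ttn and Neb counts, KAT8 cKO library over WT library (log axis, 1 library each), by list, with genes of the 41 in blue, other muscle genes in orange and black bars for list medians. Fast isoforms spread from 0.20 to 1.67 around a median of 1.01, while the slow isoforms have a median of 2.16 and Myh3 lies at 6.02. A gene with equal CPM in both libraries would lie at 4.16.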

How the data were processed

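RNA-seq was analysed for 1 WT and 1 KAT8 cKO library. The authors deposited raw counts per Ensembl gene, whole numbers without normalization. Per the submitters' processing notes, HISAT2, StringTie 1.3.0, edgeR and build mm10 were involved, with no role given. The counting tool, annotation and strand setting are not stated in the sources used here, so overlapping genes on either strand cannot be told apart. Of the 41 genes, 16 share an exon position with another gene of the table.

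Symbols, coordinates (GRCm38, the assembly of mm10) and union exon lengths came from GENCODE M21, which matched 34267 of 34745 identifiers. The members and lists were chosen with earlier results of these data known. CPM were counts over the library total times an edgeR 4.0.16 TMM factor (0.946 and 1.06), computed on the whole table. The pseudocount was 1 CPM and the minimum 1 CPM in either library. edgeR was not used for testing. Intervals of single ratios are exact (Clopper-Pearson), and those of ratios of 2 genes are normal intervals on the log scale. Reads carried no molecular identifiers, so intervals cover counting error only. All members were named. In each wider list the text names up to 3 genes, those furthest past the 2-fold rule, of which some are not reported here. In each list of other cell types the gene with the highest mean level could be named. The ratio calculations were tested on simulated data. Promoter sequences are from RefSeq (GRCm38.p6). Alternatives were other scalings, filters, a pseudocount of 0.1 and the removal of genes that share exons.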

Additional observations from a re-analysis of the deposited data

How the results depend on the processing

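No paired analysis was possible because each label had 1 library, and for the same reason no library could be left out. Over the 4 alternatives that can change a gene's ratio (3 other scalings and another pseudocount), 156 of 160 single-gene results stayed on their side of the 2-fold rule and none changed direction. Filters and the removal of genes change only which genes are counted. With plain CPM, which moved the median of all genes from 0.01 to 0.16, Myh7 (-0.90), Tnnc1 (-0.93) and Actn2 (-0.99) no longer reached a log2 ratio of -1, so that 2 slow isoforms in place of 4 were 2-fold lower, 29 members were lower and the fast median was -1.87. All genes then split into 964 higher and 1056 lower, against 695 and 1315. With a pseudocount of 0.1, Myod1 passed the rule (-1.05), and over all genes 1722 were lower and 1012 higher. Without genes that share exons, 18 of the 24 measured members left were lower, the fast median was -2.39, the slow median -0.78, and the median fall of the fast-to-slow ratio was 3.80-fold over the 3 pairs left. The smaller count follows from the fewer genes. Without length correction the Myh4 share was 43.4% and 14.1%. The members' share of counts was 2.66% and 0.673% without mitochondrially encoded genes in the total, and 1.14% and 0.344% without the 5 most abundant members. Depth limits the members with few counts, such as Pax7, Myl3, Myh8, Myog, Myod1, Myl2 and Tnni1. Whether the differences recur in other animals was not tested, and genotype, sex and the share of muscle in the specimen cannot be told apart.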
